A study of Sus scrofa with 15 samples.

Results

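Pig oocytes that had reached metaphase II in culture (MII) were compared with oocytes at the germinal vesicle stage (GV), across genes and transcript isoforms. The libraries were chosen by their labels alone: 5 MII and 5 GV libraries, 10 of the 15 libraries of the series. Each library was made from 15 oocytes of *Sus scrofa*. GV oocytes came straight from fresh ovarian follicles and were not cultured. MII oocytes had matured for 44 h (by the labels) or 42 to 44 h (by the methods) inside their cumulus complexes, and showed a first polar body. Cumulus cells were removed with hyaluronidase in every group. The other 5 libraries were ‘damaged’ oocytes, which had gone through the same culture without showing a polar body, and they are used here to ask which changes were clearer in MII. Culture and meiotic stage changed together between GV and MII and cannot be told apart. By the methods the 5 libraries of a group came from independent collections of abattoir ovaries, so p-values measure the spread between such pools of oocytes, and no source names the animals in a pool. As the methods read, each collection gave oocytes of every group, so the groups share collections. The labels do not say which libraries came from the same collection, and the main tests are unpaired.

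A GV oocyte is held in prophase of the first meiotic division with an intact nucleus, and its transcription is largely silent once it is full grown. On resumption of meiosis the nuclear envelope breaks down, cyclin B with CDK1 drives the oocyte through the first division, a polar body is cast off, and the oocyte stops again at metaphase II until fertilization. With little new transcription, levels of RNA in this interval are known to be set by the decay of stored maternal mRNAs and by lengthening or shortening of their poly(A) tails. The cDNA was primed from the poly(A) tail, so the amount of an mRNA and the length of its tail cannot be told apart in these values, nor can fewer molecules per oocyte and fewer oocytes that hold them.

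The estimated counts summed to between 12.9 and 23.6 M in the MII libraries and to between 11.96 and 14.5 M in GV replicates 1, 2, 4 and 5, but to 6.40 M in GV replicate 3. GV replicate 3 also gave 11.6% of its counts to the 13 mitochondrially encoded protein genes, against 2.12 to 3.33% in the other GV libraries and 1.98 to 4.49% in MII. Results that rest on this library are therefore given with and without it. By 1 minus the correlation of log2 CPM, the distance between an MII and a GV library was 0.133 to 0.258, between MII libraries 0.0181 to 0.0315 and between GV libraries 0.0202 to 0.115. Each of the 10 libraries had its nearest neighbour in its own group. The median SD of log2 CPM per gene was 0.318 among MII and 0.427 among GV libraries, which became 0.329 without GV replicate 3. In a table of gene counts deposited beside the transcript files, 7 of the 15 columns carried the total of a differently labelled library, so stage and replicate were taken from the labels of the transcript files throughout. Of the oocyte markers placed, 18 of 18 passed the filter on low counts, and their summed level was 9649 to 18884 CPM in GV and 25531 to 30074 CPM in MII libraries. The higher sum in MII was carried by *BTG4* with 16959 to 19600.3 CPM there and 803 to 4004 CPM in GV, and the other oocyte markers summed to 8846 to 14880.1 CPM in GV and 8405 to 11535 CPM in MII. Of 23 cumulus or granulosa markers placed, 13 passed. The summed level of all 23 was 271 to 488 CPM in GV and 1020.4 to 1303 CPM in MII, of which *VCAN* made up 184 CPM on average in GV and 936 CPM in MII. Of the 13, 2 rose, 2 fell and 9 were not called by the rule given below. Among the 10 that did not pass, *GJA1* had at most 38.1 estimated counts in a GV and 13.6 in an MII library, and *TNFAIP6* 28.9 and 33.7. *FSHR*, *AMH* and *INHA* had at most 14.6, 9.52 and 3.04 in a GV and 3.99, 0 and 0 in an MII library. The theca or stroma markers summed to 25.8 to 54.2 CPM in GV and 9.17 to 13.4 CPM in MII, and the blood, immune or endothelial markers to 13.3 to 37.7 CPM and 14.7 to 31.1 CPM. The part of cumulus and stroma markers in the results was not tested.

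Genes were compared by limma-voom over 13108 genes, with libraries scaled by TMM factors, which allow for a different make-up of the RNA. A differentially expressed gene (DEG) had a false discovery rate (FDR) under 0.01 and a log2 fold change above 2 or below -2. Levels are TMM-scaled counts relative to the library total (CPM), given as mean ± SD over 5 libraries. In MII oocytes 744 genes were upregulated, 5.68% of those tested, and 2265 were downregulated, 17.3% of those tested. Without the demand on the size of the change, 3706 genes (28.3%) were higher and 4423 (33.7%) were lower at this FDR. Among the 3009 DEGs, the 5 MII and 5 GV libraries did not overlap in 97.7%, and over all genes tested they did not overlap in 55.9%. Over all genes tested, log2 fold changes had a median of -0.17.

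The scale decided how many genes counted as upregulated. With libraries scaled by their totals alone the median over all genes was -1.10, and 70 genes (0.534%) were upregulated and 3949 (30.1%) downregulated. The 2 scalings differed by a nearly constant 0.93 on the log2 scale (0.91 to 0.95 between the 5th and 95th percentile of genes), because the TMM factors were 1.30 to 1.67 in GV and 0.767 to 0.850 in MII libraries. A rise below thus means a rise against the typical gene. For each gene list the counts on library sizes are given after those on TMM scaling, and the shares of a list are to be read against 5.68% rising and 17.3% falling of all genes on TMM scaling and 0.534% and 30.1% on library sizes. Without GV replicate 3, 596 genes were upregulated (4.51% of 13225) and 2254 downregulated (17%).

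**Figure D1:**
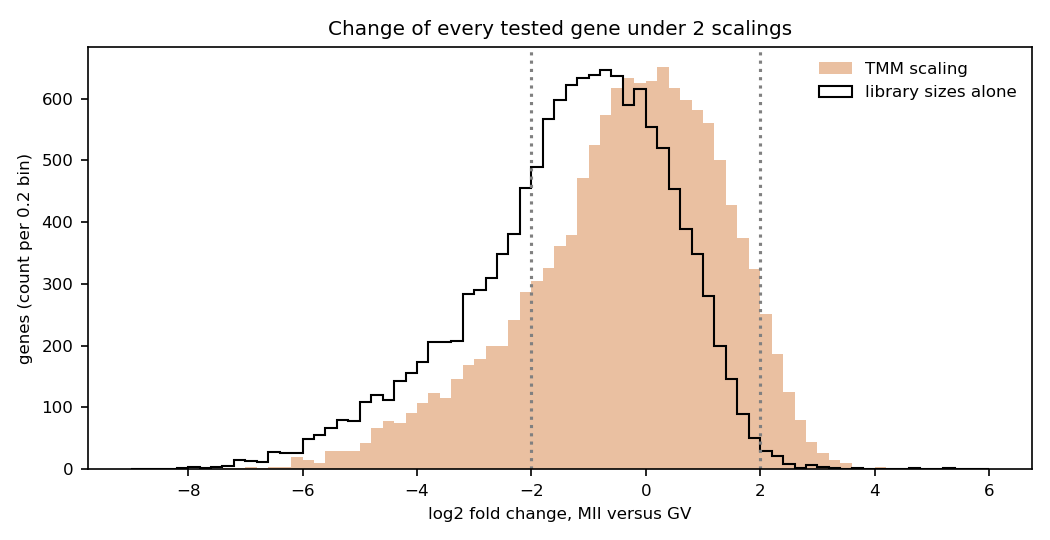
Histogram of the log2 fold change of MII against GV oocytes for the 13108 genes tested (x axis) with the number of genes in bins of 0.2 (y axis), filled for TMM scaling and outlined for library sizes alone, with dotted lines at -2 and 2. Both curves have a long left tail, and library sizes alone move the median from -0.17 to -1.10.

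The GV libraries were not alike in the genes that rose. GV replicate 1 was the highest GV library in 554 of the 744 upregulated genes (74.5%) and in 35.7% of all genes tested. GV replicate 3 was the lowest GV library in 577 of them (77.6%), against 39.7% of all genes tested. For upregulated genes the GV library nearest to MII was thus mostly replicate 1 and the farthest mostly replicate 3. Among the downregulated genes, replicate 1 was the lowest GV library in 45.1% and replicate 3 the highest in 42.9%. In both directions these shares lay above those over all genes.

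Fewer genes passed a threshold of 1 TPM in MII than in GV oocytes. The genes with over 1 TPM (abundance per transcript length, relative to the total of the library) numbered 11191, 11799, 11945, 11692 and 12209 in GV replicates 1 to 5 and 8804, 8691, 9120, 8762 and 8952 in MII replicates 1 to 5. The 2 ranges were far apart, and the two-sided exact permutation p was 0.00794, the smallest that 5 libraries against 5 allow, while the totals of the MII libraries were the higher ones on average (17.4 M against 12.1 M in GV). Since TPM is relative to the library total, without TMM factors, 1 TPM is not the same bar in both groups. The part of this scale in the counts of genes was not tested. The 10 most abundant genes took 12.7 to 14.2% of the counts in MII and 7.18 to 7.47% in GV, except for 13.3% in GV replicate 3 (two-sided exact permutation p = 0.0238).

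The most abundant RNAs per transcript length were chosen after their values were seen. First in MII was a gene of 330 bases without a symbol, ENSSSCG00000000296, with 10587 to 35045 TPM in the GV and 140351 to 148964 TPM in the MII libraries. It made up 14.4% of all TPM in MII and 2.43% in GV, and its log2 fold change was 3.72 ± 0.26 (SE, FDR 3.4e-10). *BTG4*, an adaptor that brings the CCR4-NOT deadenylase to maternal mRNAs, was second in MII with 23829 ± 493 TPM, against 5792 ± 2532 TPM in GV. Then came the mitochondrial *ATP8*, the ubiquitin gene *UBB*, and *CKS1B*, a small partner of cyclin-dependent kinases, the last at 17844 ± 2239 TPM in MII and 9218 ± 2137 TPM in GV. *PCNA*, the sliding clamp of DNA replication, had 16740 ± 1046 TPM in MII and 5307 ± 810 TPM in GV (log2 fold change 2.73 ± 0.16, FDR 5.8e-11).

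Of 13 tested genes of cyclin B, CDK1 and their regulators, the kinase switch that drives meiosis, 1 rose (7.69%), 3 fell (23.1%) and 9 were not called, with a median of 0.65 on the log2 scale. These shares were near those of all genes. On library sizes none rose and 3 fell, with a median of -0.28. *CCNB1*, cyclin B1 (chromosome 16, 47338239 to 47348385), had 1229, 789, 572, 972 and 721 CPM in GV replicates 1 to 5 and 4734, 5976, 5759, 5792 and 5241 CPM in MII replicates 1 to 5. Every MII library lay far above every GV library, with a log2 fold change of 2.73 ± 0.17 (FDR 7.5e-11). *CDK1*, the kinase that cyclin B activates (chromosome 14, 64233945 to 64255290), went the other way. It had 790.4, 277, 68.5, 446 and 218 CPM in GV and 20.8, 21.7, 36.2, 26.1 and 20.4 CPM in MII. The GV libraries differed among themselves by more than 10 times and still did not overlap with MII, and the log2 fold change was -3.48 ± 0.45 (FDR 1.0e-06), or -3.96 without GV replicate 3. Phosphatases of the CDC25 family, which activate CDK1, fell as well. *CDC25B*, the one known to start meiosis in mouse oocytes, went from 123 ± 37.4 to 5.75 ± 2.08 CPM (log2 fold change -4.43 ± 0.29, FDR 1.8e-10), and *CDC25A* from 57.3 ± 23.7 to 5.55 ± 1.98 CPM (-3.32). *CDC25C* was not called, at a log2 fold change of 1.59. *WEE2*, the oocyte kinase that restrains CDK1, missed the size threshold at 1.96 ± 0.19, with 574 ± 81.7 CPM in GV and 2228 ± 254 CPM in MII and no overlap of libraries. *CCNB2* and *CCNB3*, the other B-type cyclins, were not called, at -0.31 ± 0.28 and 1.48 ± 0.21.

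MOS is the kinase that starts the MAP kinase cascade behind the metaphase II arrest, and high cAMP keeps the GV oocyte from resuming meiosis. Of 9 tested genes of the MOS pathway, none rose and 1 fell, with a median of -0.40 (on library sizes 0 and 3, with a median of -1.32). *MOS* itself had 778, 599, 893, 686 and 739 CPM in GV and 440, 416, 752, 514 and 751 CPM in MII. The groups overlapped, and the log2 fold change of -0.40 ± 0.21 did not pass (FDR 0.094). *MAP2K2*, one of the 2 MAP kinase kinases, fell from 9.79 ± 3.58 to 0.212 ± 0.191 CPM (log2 fold change -5.55 ± 0.54, FDR 2.7e-08), whereas the other, *MAP2K1*, had a log2 fold change of 0.41. Of 14 tested genes of the cAMP pathway, 1 rose (7.14%) and 2 fell (14.3%), with a median of 0.18 (on library sizes 0 and 5, with a median of -0.74). The shares of the cAMP list were near those of all genes, and the MOS list was too short to read a share from. *PRKAR1A*, a regulatory subunit of protein kinase A, rose from 161 ± 25.7 to 803 ± 80.6 CPM (2.32 ± 0.13, FDR 3.9e-11). *AKAP1*, which anchors that kinase at mitochondria, fell from 37.2 ± 8.66 to 2.75 ± 0.753 CPM (-3.71 ± 0.23, FDR 7.6e-11), and *ARPP19*, an inhibitor of the phosphatase PP2A once phosphorylated, fell from 401 ± 165 to 58.1 ± 7.62 CPM (-2.70). *PDE3A*, the phosphodiesterase that breaks down cAMP in oocytes, had 27.6 ± 4.77 CPM in GV and 61.4 ± 11.6 CPM in MII, a log2 fold change of 1.13 ± 0.17 that was under the size threshold. *GPR3*, the receptor that keeps cAMP high, had at most 5.17 estimated counts in a library and was not tested.

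**Figure D2:**
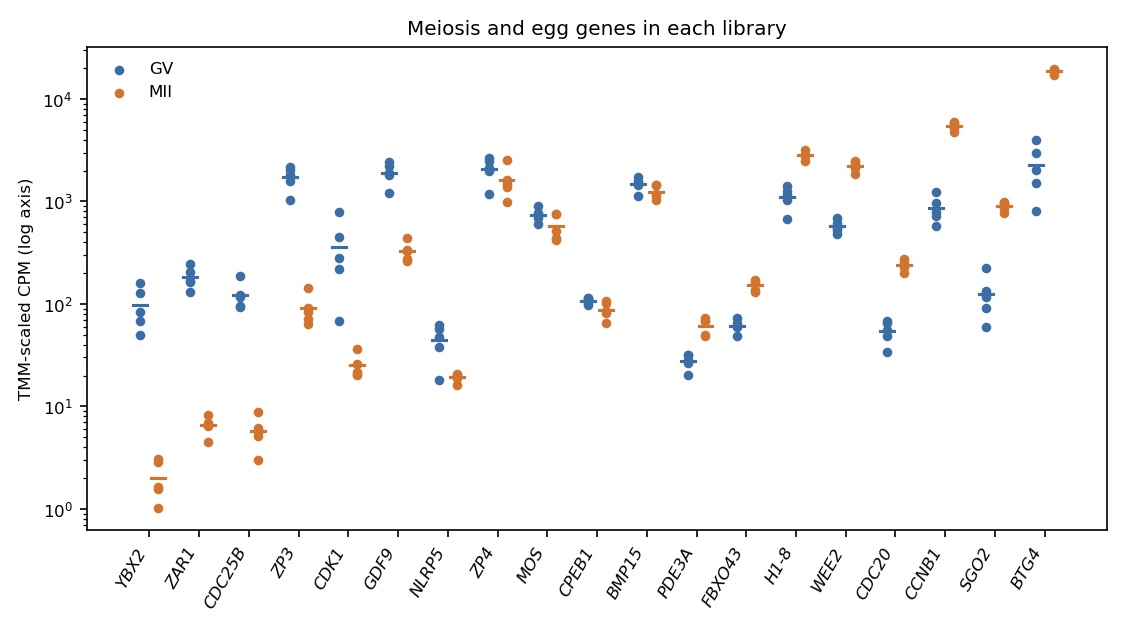
TMM-scaled CPM (y axis, log scale) of 19 genes of meiosis and the egg (x axis, in order of log2 fold change) in each of 5 GV (blue) and 5 MII (orange) libraries, with a bar at the mean. *YBX2*, *ZAR1*, *CDC25B* and *ZP3* lie lower in every MII library, *MOS*, *CPEB1*, *BMP15* and *ZP4* overlap, and *CCNB1*, *SGO2* and *BTG4* lie higher in every MII library.

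The anaphase promoting complex is the ubiquitin ligase that destroys cyclin B and securin so that chromosomes can part. Of 20 tested genes of the complex and its regulators, 3 rose (15%) and 2 fell (10%), with a median of 1.22 (on library sizes 0 and 2, with a median of 0.28). Leaving out GV replicate 3 gave 2 rises and 2 falls. *CDC20*, its activator in mitosis and meiosis, rose from 54.1 ± 13.8 to 238 ± 27.5 CPM (2.16 ± 0.17, FDR 1.7e-09), while *FZR1*, the alternative activator, fell from 37.3 ± 11.2 to 5.12 ± 0.86 CPM (-2.82). *CDC26*, a small subunit, fell from 77.6 ± 26.8 to 8.8 ± 1.63 CPM (-3.09 ± 0.25, FDR 2.5e-09). The other rises were *ANAPC15* (2.08) and the ubiquitin conjugating enzyme *UBE2D1* (2.04). *FBXO43*, also called EMI2, which blocks the complex during the metaphase II arrest, had 61.1 ± 8.98 CPM in GV and 152 ± 18.01 CPM in MII with no overlap, but its 1.31 ± 0.14 was under the size threshold.

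Of 17 tested genes of cohesin, the ring that holds sister chromatids together, and of its protectors, 4 rose and none fell, with a median of 1.65. The share that rose was 23.5%, against 5.68% of all genes. On library sizes 1 rose and 2 fell, with a median of 0.71. *SGO2*, the shugoshin that protects centromeric cohesion through the first division, had 224, 118, 59.4, 133 and 90.2 CPM in GV and 962, 977, 768, 967 and 869 CPM in MII. The lowest MII library was above 3 times the highest GV library, and the log2 fold change was 2.98 ± 0.23 (FDR 1.3e-09). The other rises were *SMC1B*, the meiotic cohesin subunit, from 314 ± 97.7 to 1759.6 ± 165 CPM (2.53), *SGO1* (2.38) and *STAG2* (2.25). Among those not called, *STAG3*, the meiotic partner of *SMC1B*, had -1.45. *REC8*, the meiotic kleisin, had at most 4.99 estimated counts and was not tested, and *PTTG1*, securin, was not analysed here.

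Kinetochore and spindle checkpoint genes moved in both directions. Of 40 tested, 9 rose (22.5%, against 5.68% of all genes), 4 fell (10%, against 17.3%) and 27 were not called, with a median of 1.11. On library sizes 2 rose and 8 fell, with a median of 0.18, and without GV replicate 3 the numbers were 8 and 4. *CENPI*, of the inner kinetochore, had 57, 29, 12.4, 43.2 and 23.8 CPM in GV and 231, 272, 275, 315 and 242 CPM in MII (3.15 ± 0.26, FDR 2.8e-09). *MAD2L1*, which carries the wait signal of the checkpoint, rose from 369 ± 205 to 2617 ± 216 CPM (3.01), and *NDC80*, which grips microtubules, from 224 ± 80.0 to 1321 ± 143 CPM (2.62). Another subunit of the NDC80 complex went the other way, since *SPC24* fell from 387 ± 65.3 to 35.1 ± 5.32 CPM (-3.46 ± 0.17, FDR 1.1e-11). *SPC25* was not called at -1.09 and *NUF2* was not called at 1.77, so the 4 subunits of 1 complex lay between -3.46 and 2.62. *DSN1* and *PMF1*, of the MIS12 complex, fell by 2.17 and 2.73, whereas *NSL1* of the same complex rose by 2.17.

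Of 31 tested kinesins, 4 rose (12.9%, against 5.68% of all genes) and 2 fell (6.45%), with a median of 0.70. On library sizes none rose and 7 fell, with a median of -0.23. *KIF18A*, which sets the length of kinetochore fibres, rose from 207 ± 85.6 to 1375 ± 91.6 CPM (2.82 ± 0.20, FDR 4.1e-10), and *KIF20B* (2.49), *KIF15* (2.19) and *KIF4A* (2.15), all motors of dividing cells, rose too. The 2 that fell, *KIF17* and *KIF12*, were low at 3.69 ± 1.43 and 3.78 ± 1.85 CPM in GV. Pig oocytes build a spindle without centrioles, and of 25 tested genes of centrosomes and microtubule nucleation 3 rose (12%) and 2 fell (8%), with a median of 0.75 (on library sizes 0 and 10, with a median of -0.18). *NEDD1*, which recruits the gamma-tubulin ring, rose from 84.6 ± 33.0 to 535 ± 37.1 CPM (2.73 ± 0.19, FDR 3.9e-10), and *TPX2*, which activates Aurora A on the spindle, from 398 ± 102 to 2076 ± 168 CPM (2.42). *HAUS7*, of the augmin complex, fell from 12.4 ± 1.01 to 0.224 ± 0.0597 CPM (-5.59 ± 0.42, FDR 9.3e-10). The other fall, *TUBGCP6* of the gamma-tubulin ring, was at -2.18 and, without GV replicate 3, at -1.97 and no longer called.

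Of 35 tested genes of the nuclear envelope and pore, structures that are taken down before metaphase, 9 rose (25.7%, against 5.68% of all genes) and none fell, with a median of 0.73. On library sizes none rose and 6 fell, with a median of -0.20, and without GV replicate 3 the numbers were 8 and 0. *NUP37* rose most, from 179 ± 74.7 to 1043 ± 121 CPM (2.64 ± 0.22, FDR 3.7e-09), followed by *TPR* of the nuclear basket (2.48) and by *NUP107* (2.47), which sits with NUP37 in the Y-shaped scaffold of the pore. *NUP43* (2.28) and *NUP160* (2.15) of that scaffold rose too, whereas *LMNA*, lamin A, was not called at -1.88. Of 25 tested genes of chromatin and histone storage, 2 rose (8%) and 1 fell (4%), with a median of 0.29 (on library sizes 0 and 3, with a median of -0.63). *NPM1*, a histone chaperone of the nucleolus, rose from 874 ± 323 to 4857 ± 305 CPM (2.55 ± 0.19, FDR 9.1e-10). *SUV39H1*, a histone H3 lysine methyltransferase, fell from 1.45 ± 0.241 to 0.145 ± 0.11 CPM (-3.30 ± 0.48, FDR 5.1e-06), a low level in both groups. *H1-8*, the linker histone of oocytes, had 1105 ± 282 CPM in GV and 2815 ± 231 CPM in MII (1.39 ± 0.17) and the maintenance methyltransferase *DNMT1* had 1.61, both under the size threshold.

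Stores of maternal mRNA are kept silent by RNA-binding proteins and then released and degraded. Of 44 tested genes of these steps, 4 rose and 4 fell (9.09% each), with a median of 0.26 (on library sizes 1 and 7, with a median of -0.67). *BTG4* had 4004, 2005, 803, 2999 and 1506 CPM in GV and 19308, 19600.3, 16959, 18356 and 18539 CPM in MII, every MII library above 4 times the highest GV library (3.24 ± 0.28, FDR 6.6e-09). *CNOT7*, a deadenylase of the CCR4-NOT complex that BTG4 binds, rose from 301 ± 72.0 to 1233 ± 70.5 CPM (2.06), *DCP2*, which removes the cap, by 2.21, and *XRN1*, which digests uncapped RNA, by 2.53. Of those that fell, *YBX2*, also called MSY2, which coats stored mRNA, had 49.4, 83.4, 161, 68.2 and 129 CPM in GV and 1.55, 1.01, 2.84, 1.63 and 3.05 CPM in MII (-5.54 ± 0.39, FDR 3.9e-10). *ZAR1*, which binds maternal transcripts, had 130, 162, 248, 169 and 203 CPM in GV and 6.79, 6.38, 4.5, 8.26 and 6.93 CPM in MII (-4.76 ± 0.22, FDR 4.8e-12). In both genes the lowest GV library was more than 10 times the highest MII library. *PATL2*, a repressor of translation in oocytes, fell by 2.87 and *ZFP36L2*, which binds AU-rich elements, by 2.70. *CPEB1*, which governs cytoplasmic polyadenylation, had 108 ± 7.70 CPM in GV and 88.1 ± 16.9 CPM in MII, and its -0.31 ± 0.18 did not pass (FDR 0.14).

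Of 11 tested genes of the zona pellucida, the egg surface and oocyte growth factors, 2 rose and 3 fell, with a median of -0.73 (on library sizes 1 and 5, with a median of -1.64). *ZP3*, a zona glycoprotein, had 1820, 1587, 1028, 2042 and 2151 CPM in GV and 63.8, 71.2, 91.6, 83.1 and 143 CPM in MII (-4.26 ± 0.25, FDR 6.3e-11). The other zona genes did not move with it: *ZP4* had 2094 ± 576 CPM in GV and 1601 ± 575 CPM in MII (-0.40 ± 0.23, FDR 0.12), and *ZP2* had 0.10. *GDF9* and *BMP15* encode growth factors that act as a pair on cumulus cells. *GDF9* fell from 1909 ± 469 to 329 ± 70.1 CPM (-2.52 ± 0.18, FDR 6.3e-10), while *BMP15* had 1480.2 ± 225 CPM in GV and 1246 ± 186 CPM in MII with overlapping libraries (-0.25 ± 0.18, FDR 0.21). The oocyte-secreted *OOSP3* rose from 370 ± 142 to 3928 ± 688 CPM (3.47 ± 0.22, FDR 9.4e-11) and *OOSP2* by 2.90. Of 6 tested genes of the subcortical maternal complex and related NLRP genes, *NLRP4* rose from 69.2 ± 22.0 to 389 ± 90.2 CPM (2.52 ± 0.23, FDR 1.5e-08) and *PADI6* fell from 563 ± 119 to 134 ± 19.8 CPM (-2.07 ± 0.17, FDR 2.3e-09). The median of these 6 was 0.08. On library sizes none rose and 2 fell, with a median of -0.87. *NLRP5*, also called MATER, was not called at -1.13 ± 0.29. Of the 18 oocyte markers, 7 fell and 1 rose (8 and 1 on library sizes), and among the falls were the transcription factors of the growing oocyte *FIGLA* (-3.27), *NOBOX* (-2.94) and *LHX8* (-2.63).

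**Figure D3:**
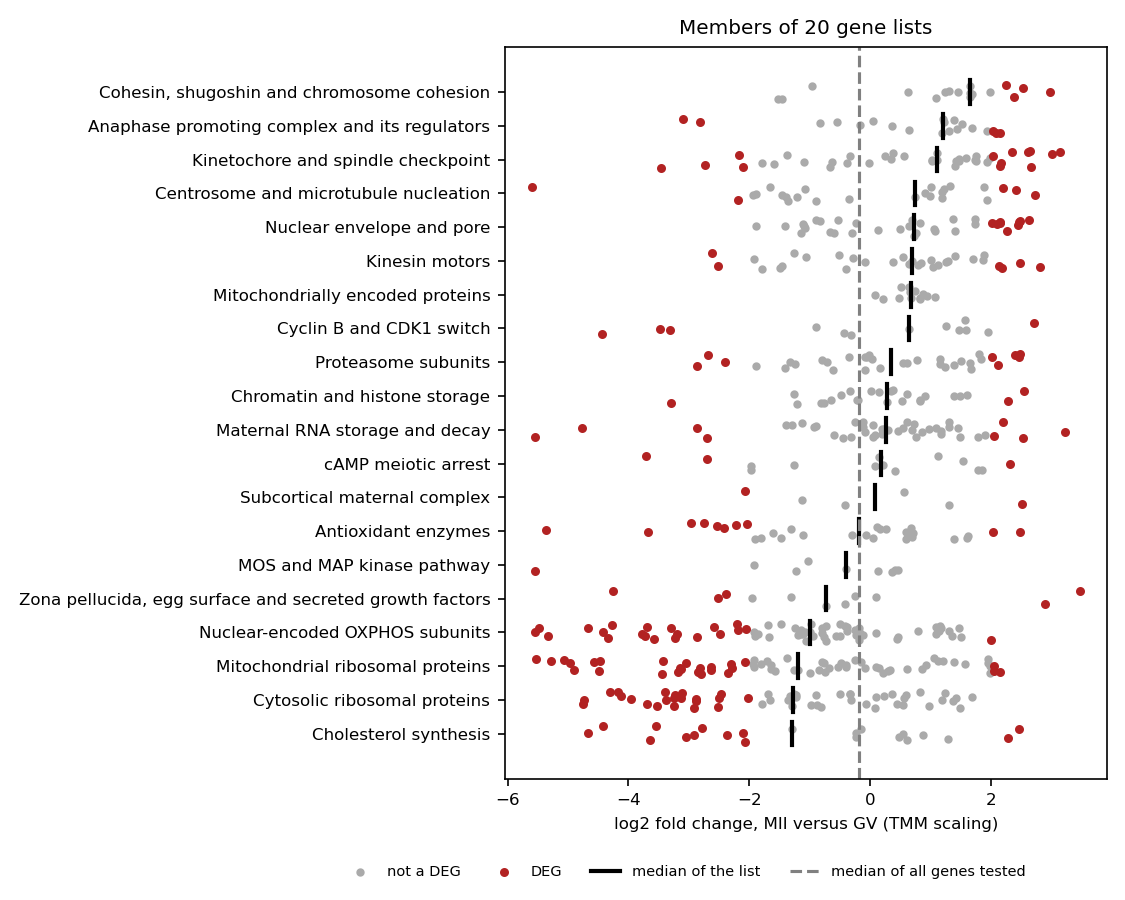
Log2 fold change of MII against GV oocytes (x axis, TMM scaling) for each tested member of 20 gene lists (y axis, in order of their medians), with DEGs in red, other genes in grey, a black bar at the median of each list and a dashed line at the median of all genes, -0.17. The list medians run from -1.29 for cholesterol synthesis to 1.65 for cohesin, and each list except the mitochondrially encoded genes holds DEGs.

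The genes of ribosomes and of oxidative phosphorylation held the most falls. Of 56 tested genes of cytosolic ribosomal proteins, none rose and 22 fell (39.3%, against 17.3% of all genes), with a median of -1.27. On library sizes none rose and 31 fell. As a share of all TPM, these genes made up 2.35 to 2.87% of the GV and 0.735 to 0.947% of the MII libraries. The largest fall was *RPL23A*, from 109 ± 19.5 to 6.94 ± 9.53 CPM (-4.75 ± 0.53, FDR 1.9e-07). Its MII value rests on MII replicate 3 with 23.9 CPM, while the other MII libraries had 1.81 to 3.67 CPM. Among the ‘damaged’ libraries replicate 3 stood apart as well, with 26.1 CPM against 1.97 to 4.25 CPM. *RPLP2* (-4.73), *RPL35* (-4.30) and *RPS26* (-4.17) followed. The spread within the list was wide, for *RPL5* had 1.25 and *RPS27L* had 1.70, neither of them called. Ribosomal protein genes have many near-identical copies in the genome, so the counts of single members are uncertain.

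Of 67 tested genes of mitochondrial ribosomal proteins, 3 rose and 23 fell (34.3%), with a median of -1.19 (0 and 34 on library sizes). *MRPL37* fell from 1151 ± 136 to 39.6 ± 10.7 CPM (-4.89), and *MRPS2* showed the largest fall at a low level, from 4.62 ± 2.96 to 0.101 ± 0.145 CPM (-5.53 ± 0.86, FDR 1.2e-05). The rises were *MRPS35* (2.15 ± 0.27, FDR 6.5e-07), *MRPS5* (2.05) and *MRPL44* (2.05). Without GV replicate 3, *MRPS35* was at 1.96 and 1 gene of the list was called upregulated. Of 67 tested nuclear genes for subunits of the respiratory chain and ATP synthase, 1 rose and 20 fell (29.9%), with a median of -0.99 (0 and 32 on library sizes). *NDUFA7*, of complex I, had 268, 199, 197, 226 and 172 CPM in GV and 4.85, 3.19, 6.63, 3.31 and 5.34 CPM in MII (-5.55 ± 0.25, FDR 3.5e-12), and complex I genes were 12 of the 20 falls and 32 of the 67 tested. *SDHC*, of complex II, was the single rise at 2.003 ± 0.29, and at 1.76 without GV replicate 3 it was no longer called. None of the 13 mitochondrially encoded protein genes passed, with log2 fold changes of 0.09 to 1.08 and a median of 0.69 that became -0.21 on library sizes and 1.13 without GV replicate 3. They took 4.59 ± 3.95% of the counts in GV and 3.39 ± 1.14% in MII (two-sided exact permutation p = 0.825). The GV mean rests on GV replicate 3 with 11.6%, while the other GV libraries had 2.12 to 3.33% and the MII libraries 1.98 to 4.49%.

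Short transcripts held more DEGs of both directions. In 5 equal bins of the mean transcript length of a gene, 26.0% of the genes of the shortest bin (171 to 1651 bases) fell and 8.58% rose, against 9.99% and 3.36% in the longest bin (4908 to 23848 bases). The shares declined at each step from the shortest to the longest bin, in both directions. The median log2 fold change was -0.25 in the shortest and -0.04 in the longest bin, and Spearman's rho across genes was 0.06. The median transcript length was 784 bases for the cytosolic ribosomal list, 1571 for the mitochondrial ribosomal list and 1257 for the respiratory list, against 2949 over all genes. The part of length in the falls of these lists was not tested.

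Of 34 tested proteasome subunits, 5 rose (14.7%) and 3 fell (8.82%), with a median of 0.35 (on library sizes 0 and 7, with a median of -0.60). Leaving out GV replicate 3 gave 3 rises and 3 falls. *PSMA5* rose from 110 ± 51.6 to 566 ± 36.6 CPM (2.48 ± 0.23, FDR 1.5e-08), as did *PSMD4*, a ubiquitin receptor (2.48), and *PSMA2* (2.41), whereas *PSMC5*, of the base, fell from 49.1 ± 12.6 to 6.7 ± 1.62 CPM (-2.87 ± 0.22, FDR 1.3e-09) and *PSMA6*, a subunit of the same ring as PSMA5 and PSMA2, was called too, at -2.68. Of 30 tested antioxidant enzymes, 2 rose (6.67%) and 8 fell (26.7%), with a median of -0.18 (on library sizes 0 and 14, with a median of -1.12). Here the numbers without GV replicate 3 were 2 and 7. *CAT*, catalase, rose from 84.2 ± 39.6 to 438 ± 108 CPM (2.49 ± 0.29, FDR 3.6e-07) and *GPX1* by 2.05. The peroxiredoxins *PRDX3* and *PRDX1* fell by 3.67 and 2.54, *GPX4*, which guards membrane lipids, by 2.74, and *NXN*, nucleoredoxin, fell from 18.3 ± 3.98 to 0.429 ± 0.176 CPM (-5.36 ± 0.50, FDR 1.4e-08). *SOD1* and *SOD2* were not called, at 0.69 and 0.60.

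Cholesterol synthesis had the largest share of falls among the lists, 10 of 21 tested genes (47.6%), with 2 rises and a median of -1.29 (0 rises and 11 falls on library sizes, and 2 and 9 without GV replicate 3). *TM7SF2* fell from 7.77 ± 3.74 to 0.276 ± 0.184 CPM (-4.67 ± 0.59, FDR 9.6e-07), and the falls ran through the path from *MVK*, *PMVK*, *MVD*, *IDI1* and *FDPS*, the steps from mevalonate to farnesyl diphosphate, to *NSDHL* and *DHCR7* in its later steps. *MSMO1*, a methylsterol oxidase, had 391, 203, 107, 300.3 and 138 CPM in GV and 1122, 1211, 1145, 1272 and 934 CPM in MII (2.47 ± 0.26, FDR 9.6e-08), and *ACAT2* rose by 2.30. *FDFT1*, squalene synthase, was not called at 1.30, with 1512 CPM in GV and 3608 CPM in MII.

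The largest rises and falls of single genes, members of the lists included, were taken from DEGs with a symbol whose libraries did not overlap and whose mean was at least 10 CPM in the higher group. *SNX7*, a sorting nexin (ENSSSCG00000006877, chromosome 4, 119040986 to 119258507), had 285, 133, 67.9, 260 and 126 CPM in GV and 3218, 4196, 2497, 4127 and 4888 CPM in MII (4.58 ± 0.29, FDR 1.0e-10). This was the largest rise, and GV replicate 3 was the lowest of all libraries. The next were *MTBP*, an MDM2-binding protein (ENSSSCG00000005995, chromosome 4, 18533201 to 18608702), from 8.66 ± 4.06 to 94.2 ± 17.8 CPM (3.52 ± 0.27, FDR 1.1e-09), then *OOSP3*, then *ZNF567*, a zinc finger protein, from 68.2 ± 33.0 to 690.2 ± 126 CPM (3.45 ± 0.25). *SFT2D1*, of Golgi transport, rose from 52.1 ± 16.4 to 504 ± 31.1 CPM (3.32 ± 0.18, FDR 2.0e-11), and *DDX3X*, an RNA helicase of translation initiation (ENSSSCG00000012252, chromosome X, 36988031 to 37005496), from 39.3 ± 15.1 to 378 ± 101 CPM (3.30 ± 0.29).

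The 6 largest falls went to levels of less than 1 CPM. *EIF3F*, a subunit of translation initiation factor 3 (ENSSSCG00000039647, chromosome 9, 1291660 to 1297987), had 14.3, 23.4, 28.2, 18.3 and 22.5 CPM in GV and 0.485, 0.156, 0, 0.0543 and 0.127 CPM in MII (-7.24 ± 0.53, FDR 6.9e-10). *ACTL7B*, an actin-related protein known from the testis, went from 14.6 ± 6.49 to 0.0873 ± 0.062 CPM (-7.01), and *CIMIP2A* from 39.6 ± 38.5 to 0.341 ± 0.253 CPM (-6.96). In *CIMIP2A* GV replicate 3 stood alone at 107 CPM above 12.1 to 31.3 CPM in the other GV libraries, and the log2 fold change without it was -6.57. *TNK1*, a tyrosine kinase (-6.93), *ZNRD2* (-6.92) and *TCIRG1*, a subunit of the proton pump V-ATPase (-6.87), had 12.3 ± 4.56, 32.5 ± 11.2 and 31.1 ± 7.71 CPM in GV and 0.103 ± 0.16, 0.251 ± 0.157 and 0.249 ± 0.109 CPM in MII. The highest MII library of any of these 6 genes had 0.675 CPM, so the size of their fold changes depends on a few estimated counts in MII.

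At the level of single transcripts, 2113 of 21568 tested were upregulated (9.8%) and 3445 were downregulated (16%) by the same rule. On library sizes the numbers were 952 and 5344, and without GV replicate 3 they were 1686 and 3616. Of the 5130 genes with more than 1 transcript tested, 303 had at least 1 transcript that rose and at least 1 other that fell. Of these 303 genes 275 were not DEGs, and of all 13108 genes tested 10099 were not. Opposite changes of transcripts offset each other in the count of their gene. Differential transcript usage (DTU), a change in the share of a gene's output given by an isoform, was called at an FDR under 0.01 in the model of DEXSeq and a difference in isoform fraction (dIF) over 0.1. It was found for 4133 of 11995 isoforms (34.5%) in 2237 of 4212 genes, 2073 isoforms gaining and 2060 losing. The 4212 genes had been kept because at least 1 isoform had a dIF over 0.1, the threshold of the call. The shares are thus of a set chosen by the same difference, not of all genes with more than 1 isoform. Of the 2236 genes with DTU tested at gene level, 429 were DEGs, which is 19.2% of these genes and 14.3% of the DEGs, against DEGs at 23% of all genes tested. In 813 genes the most used isoform of GV was replaced by another in MII, with both changes called. In 1635 genes that had both a gaining and a losing isoform, the one with the largest gain was shorter than the one with the largest loss in 987 and longer in 645, and the median lengths were 2731 and 3402 bases.

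Several genes switched almost fully. *IK*, a splicing factor (chromosome 2, 142361134 to 142376335), had a total of 161 TPM in GV and 187 TPM in MII and was not a DEG (log2 fold change 1.28). Its isoform of 1775 bases was listed at 0 in every GV library and had 85.7, 90.3, 92.7, 90.5 and 92.9% of the gene's TPM in MII replicates 1 to 5. The isoform of 1937 bases fell from 100% in each GV library to 7.15 to 14.3% in MII (FDR 3.4e-137). *SETDB1*, a histone H3 lysine 9 methyltransferase (chromosome 4, 98259801 to 98293238), had 2 isoforms of 4688 and 4897 bases in GV, at 62.4 ± 19.2% and 37.0 ± 20.4% of its TPM. In MII they had 2.63 ± 0.64% and 2.38 ± 1.07%, and an isoform of 1108 bases, listed at 0 in all GV libraries, took 94.7 ± 1.01% (FDR 7.8e-179). The loss of the 4688-base isoform passed (FDR 4.6e-05) and that of the 4897-base isoform did not (FDR 0.027). In GV replicate 3 the 4897-base isoform had only 3.48%, against 34.8 to 57.0% in the other GV libraries.

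*FAM98B*, a component of the tRNA ligase complex (chromosome 1, 132786198 to 132819291), used an isoform of 2182 bases at 78.2% in GV replicate 1 and 100% in the other GV libraries, and at 0.416 to 3.58% in MII. An isoform of 1254 bases replaced it, with a gain of 93.7 percentage points (FDR 5.2e-11), while the gene had 13.7 TPM in GV and 17.2 TPM in MII. In GV replicate 1 the isoform of 1254 bases gave 21.8% of the gene's TPM. In *WASF3*, which promotes actin branching (chromosome 11, 4261121 to 4366258), the share of an isoform of 4301 bases fell from 100, 93.8, 93.0, 100 and 95.1% in GV to 1.83, 32.3, 5.52, 2.24 and 4.15% in MII (FDR 2.2e-06). The isoform that replaced it had 4292 bases, so the 2 annotated transcripts are almost of 1 length. MII replicate 2 stood apart with 32.3% of the GV isoform, and the ‘damaged’ libraries had 39.7% on average, against 9.21% in MII.

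**Figure D4:**
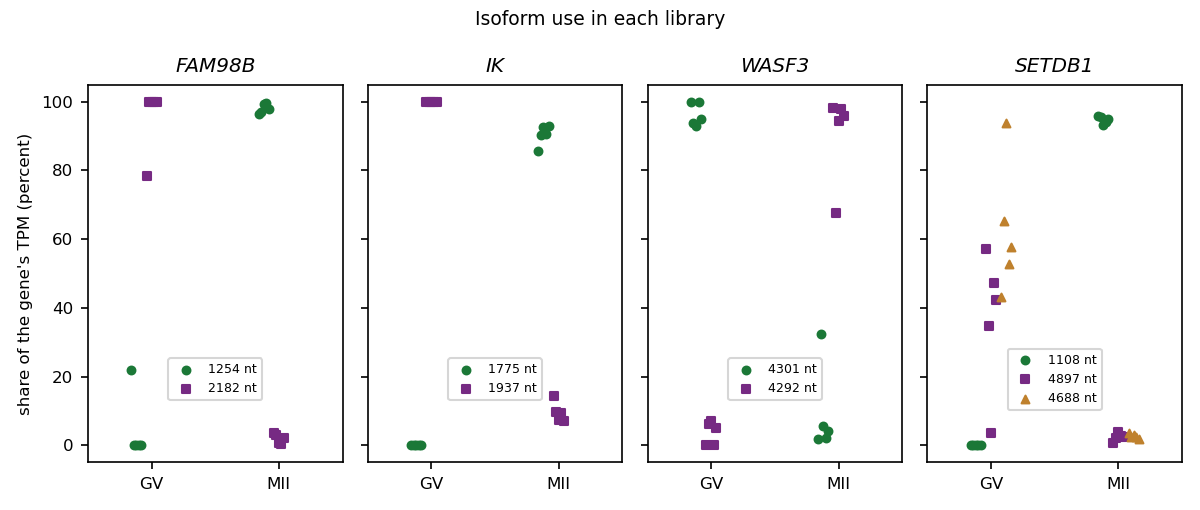
Share of the gene's TPM (y axis, percent) given by each isoform of *FAM98B*, *IK*, *WASF3* and *SETDB1* in each of 5 GV and 5 MII libraries (x axis), with isoforms marked by their length in bases (nt). The isoform that leads in MII has at most 6.95% in a GV library, apart from 21.8% in GV replicate 1 for *FAM98B*.

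No gene passed the test between MII and ‘damaged’ oocytes. Against GV, 691 genes were upregulated (5.27%) and 2156 downregulated (16.4%) in ‘damaged’ oocytes, with the same GV libraries as controls. Directly between MII and ‘damaged’, limma-voom called 0 of 13108 genes. Before adjustment 149 genes (1.14%) had a p under 0.05, and edgeR and DESeq2 called 0 genes with 197 and 187 at that unadjusted p.

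Of the 3009 DEGs of MII against GV, 39 (1.3%) had an FDR of 0.01 or more for ‘damaged’ against GV, 10 of them upregulated and 29 downregulated. These are the genes whose change was clearer in MII. Their number depends on the setting, with 23 on library sizes, 38 to 61 without 1 GV or MII library and 86 to 102 without 1 ‘damaged’ library. All 39 had the same direction in ‘damaged’ oocytes, with a median absolute log2 fold change of 1.38 there and 2.38 in MII. They were low, with a median of 1.33 CPM in the higher group, and 10 of them had an unadjusted p under 0.05 between MII and ‘damaged’. None passed after adjustment, and the smallest FDR among them was 0.999979. The rule that chose them sets MII apart from ‘damaged’, so their pattern is a description.

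Of the 39, the 6 named here have a symbol, at least 1 CPM and the smallest unadjusted p. *BTC*, betacellulin, an EGF-like ligand, had 0.16, 0.434, 0.198, 0.0502 and 0.044 CPM in GV, 1.07, 1.86, 0.635, 1.13 and 1.68 CPM in MII and 0.486 ± 0.355 CPM in ‘damaged’ oocytes. *BTC* is also one of the cumulus or granulosa markers used above, and the one with the largest called rise among them. Its log2 fold change against GV was 3.03 ± 0.54 in MII (FDR 5.6e-05) and 1.52 ± 0.60 in ‘damaged’ (FDR 0.030). *ESRRA*, an orphan nuclear receptor, fell from 1.15 ± 0.542 to 0.196 ± 0.244 CPM (-2.64) and had 0.438 ± 0.125 CPM in ‘damaged’ oocytes (-1.20). *CD3E*, of the T cell receptor complex, fell from 1.79 ± 0.651 to 0.339 ± 0.284 CPM (-2.63; -1.17 in ‘damaged’). *CXCL10*, a chemokine, fell from 3.74 ± 2.31 to 0.81 ± 0.429 CPM (-2.08) and had -0.83 ± 0.40 in ‘damaged’ oocytes. *FGFBP1* rose from 0.509 ± 0.23 to 2.45 ± 1.20 CPM (2.14, and 1.28 in ‘damaged’), but without GV replicate 3 it was at 1.96 and no longer called. *ITGB4*, an integrin subunit, fell from 1.41 ± 0.887 to 0.179 ± 0.101 CPM (-2.88, and -1.22 in ‘damaged’).

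**Figure D5:**
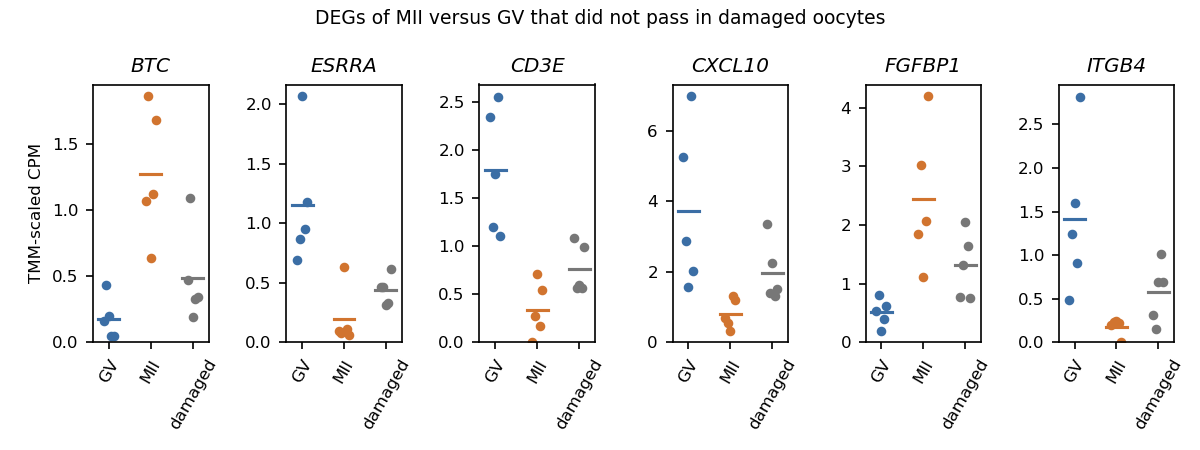
TMM-scaled CPM (y axis, a scale of its own for each gene) of 6 genes in each of 5 GV, 5 MII and 5 ‘damaged’ libraries (x axis), with a bar at the mean. The levels are low, and the ‘damaged’ libraries overlap with the MII libraries, except for *CXCL10*, where the highest MII library has 1.30 CPM and the lowest ‘damaged’ library 1.31 CPM.

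Among the genes of meiosis named above, *CDC25B* had 5.75 ± 2.08 CPM in MII and 10.5 ± 4.51 CPM in ‘damaged’ oocytes. Its log2 fold change of -0.83 between them had a 95% interval of -1.51 to -0.15 and an unadjusted p of 0.019, which did not pass over all genes. For *CCNB1* the interval was -0.24 to 0.45, for *CDC20* -0.43 to 0.25, for *BTG4* -0.51 to 0.67 and for *SGO2* -0.39 to 0.55, so differences of up to these sizes remain possible.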

How the data were processed

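RNA of 15 oocytes per library was made into cDNA with SMART-Seq HT and sequenced as single-end reads. The authors trimmed reads with AfterQC and deposited, per transcript, estimated counts (not normalized) and TPM values from Kallisto on the Ensembl cDNA of Sscrofa11.1. The submitters' processing notes name kallisto 0.43. The authors' gene table holds estimated counts made by tximport (lengthScaledTPM).

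Of the 15 columns of the gene table, 8 matched the transcript file that they name by total, and the other 7 were not used. Transcripts were assigned to genes by matching runs of transcripts to these 8 columns, which placed 13645 of the 13649 genes that had 10 or more counts in 2 or more columns, and no less than 99.98% of the counts. Where a deposited count was 10 or more, the recomputed one was within 0.0133% of it. On a simulated table, 97.4% of such genes got exactly their transcripts. With this assignment, the lengthScaledTPM formula was applied to the transcript files to give gene counts for each library. Symbols came from a gene name table for 13468 of 17111 genes, and positions from RefSeq on Sscrofa11.1 by symbol.

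Genes and transcripts were tested with limma 3.58.1 (voom) after filterByExpr and TMM of edgeR 4.0.16 in R 4.3.3, in 1 fit of the 15 libraries with 3 groups. The methods of the study name no scaling factors, so results on library sizes are given too. P-values were adjusted (Benjamini-Hochberg) across every gene, transcript or isoform tested. Intervals between MII and ‘damaged’ oocytes used the t quantile of limma's 19.1 degrees of freedom and no pairing by replicate number. DTU used the DEXSeq model fitted in DESeq2 1.42.0 on estimated counts rounded to whole numbers, for isoforms with a fraction over 0.05 of genes over 1 TPM. Genes were kept if they had more than 1 such isoform and a dIF over 0.1, in either direction, in at least 1 of them. Errors of log2 fold changes are standard errors. Libraries were also simulated with a dispersion of 0.05 and a log2 change of 3 in 200 of 13108 genes. There, 200 of 200 were recovered between MII and GV with 0 false calls, and 200 of 200 isoforms with 4 false calls over 11995 isoforms. Recovery with as many genes changed as were called in the data, 23%, was not tested. The choice between TMM and library sizes was not tested in this way either. Summaries used Python 3.11.15, numpy 2.4.6, pandas 2.3.3 and matplotlib 3.10.9.

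Genes were named by rule: 22 genes of meiosis and the egg whatever they show, the 6 largest rises and falls, the called member with the largest rise and fall of each list, 6 isoforms, and 6 genes clearer in MII. Other members of the lists are examples chosen after their values were seen. The genes, lists and tests were chosen with earlier results of these data known. Alternatives were other scalings, filters and tools, a replicate block, and leaving out each library.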

Additional observations from a re-analysis of the deposited data

Results flagged for a closer look

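In groups of 5 libraries, a value was singled out when the gap from the highest or lowest library to its neighbour exceeded 0.71 of the whole range. For genes the gap and range were taken on the logarithm of CPM plus 0.5, and for the share of the 10 most abundant genes on the percentages. Of 136 groups looked at, 9 had such a value, and chance gives about 1 in 20, or 6.8. Of the 9, 2 were in GV replicate 3. The share of counts in the 10 most abundant genes was 13.3% there, against 7.47% in the next GV library, and *NLRP4* had 33.1 CPM, against 69.2 CPM in the next lowest GV library. *HSD17B1* had 5.67 CPM in GV replicate 1, against 3.45 CPM in the next. In MII replicate 3, *CDC26* had 11.7 CPM (next 8.35), *RPL23A* 23.9 CPM (next 3.67), *ESRRA* 0.631 CPM (next 0.109) and *PSMA5*, as its lowest value, 503 CPM (next 575). In MII replicate 5, *TNK1* had 0.382 CPM (next 0.0789) and *ITGB4* was at 0 (next 0.196).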

How the results depend on the processing

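On library sizes alone the DEGs of MII against GV were 70 higher and 3949 lower, those of ‘damaged’ against GV 64 and 3735, the transcripts 952 and 5344, and the genes clearer in MII 23. With at least 10 CPM in 5 libraries the DEGs were 265 and 1168 for MII and 237 and 1127 for ‘damaged’ oocytes, over 7335 genes. Other tools, filters and counts kept the number of DEGs within 1.5 times. Leaving out 1 library at a time gave 596 to 946 higher and 2244 to 2443 lower DEGs, 3457 to 4471 isoforms with DTU, and 38 to 102 genes clearer in MII, with 86 to 102 when a ‘damaged’ library was left out. The difference between the median SD of GV and of MII libraries was 0.109, and 0.011 without GV replicate 3.

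On library sizes the median log2 fold change of the lists became -0.28 for cyclin B and CDK1, 0.28 for the anaphase promoting complex, -1.32 for MOS, -0.74 for cAMP, 0.71 for cohesin, 0.18 for kinetochores, -0.23 for kinesins, -0.18 for centrosomes, -0.67 for RNA storage and decay, -2.20 for cytosolic and -2.12 for mitochondrial ribosomal proteins, -1.93 for respiratory subunits, -0.60 for the proteasome, -1.12 for antioxidant enzymes, -2.20 for cholesterol synthesis, -0.63 for chromatin, -0.20 for the nuclear envelope, -0.87 for the subcortical maternal complex and -1.64 for the zona list. With at least 10 CPM it was 0.29 for cyclin B and CDK1, 0.85 for the anaphase promoting complex, -0.11 for MOS, 0.41 for cAMP, 1.29 for cohesin, 0.10 for RNA storage and decay, -1.65 for cytosolic ribosomal proteins, -1.42 for respiratory subunits, -0.20 for cholesterol synthesis, -0.042 for chromatin and 0.46 for the nuclear envelope. Without a filter it was 0.22 for cyclin B and CDK1, 0.028 for MOS and -1.26 for the zona list, and with only MII and GV libraries it was 0.15 for cyclin B and CDK1. The DESeq2 Wald test gave 0.29 for cAMP and 0.38 for RNA storage and decay, library quality weights gave 0.40 for cAMP, 0.54 for kinesins and -1.77 for cholesterol synthesis, edgeR gave -1.49 for cholesterol synthesis, and summed counts gave -0.51 for antioxidant enzymes. Leaving out 1 library gave -1.59 to -1.09 for cholesterol synthesis, 0.64 to 0.80 for kinesins, 0.24 to 0.43 for RNA storage and decay and 0.15 to 0.28 for cAMP. Where these values moved, the cause was not tested. Of the calls of the named genes under the alternatives, 1536 stayed, 40 were lost and 9 were gained. Library sizes alone made up 14 of the 40 losses, with 49 calls that stayed and 1 gained. Among the calls lost there were the rises of *CCNB1* (1.78), *CDC20* (1.21), *KIF18A* (1.87) and *NPM1* (1.60).

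With the replicate number as a block, 730 genes were higher and 2272 lower, 2119 and 3532 transcripts, and 3994 isoforms had DTU. The numbers were not used to pair libraries. The deviations of MII and GV libraries of the same number correlated at only -0.119 to 0.0911, and in 2 of 5 pairs the MII library correlated best with its own number. Between MII and ‘damaged’ libraries of the same number, the correlation was positive in all 5 pairs, at 0.0188 to 0.204. The main test and the intervals between MII and ‘damaged’ oocytes leave this pairing out. With the replicate block, that test called 0 genes, and 245 had an unadjusted p under 0.05. This was again below the share of about 0.05 expected without any difference.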
